A study of Homo sapiens with 6 samples.

Results

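Cadherin, catenin and junction genes, together with the epithelial trafficking gene RAB17, were followed in HepG2 cells given glycine. The set held 10 genes (CDH16, CDH17, CDH1, CDH2, CDH6, CTNNB1, CTNND1, EPCAM, TJP1 and RAB17) of the 57500 genes counted. The set was chosen by gene name after an earlier reading of the same contrast, in which CDH16 and RAB17 lay among the largest decreases by log2 change. The values of the set are therefore given as a description, without p-values. Where a gene of the set is said to pass the threshold of the fit, nothing is read from it. RNA was sequenced from wild-type HepG2 cells, an established human hepatocellular carcinoma line, kept for 24 h with vehicle or with glycine (10 mM). Each group held 3 libraries from independent replicates, and the comparison addresses which transcripts differ when glycine is added. Both groups come from the same tumour line, grown without the other cell types of a liver, and HepG2 is known to carry a deletion in CTNNB1 that stabilizes its protein.

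Cadherins are calcium-dependent adhesion molecules that join neighbouring cells. Classical cadherins (here CDH1, or E-cadherin, CDH2, or N-cadherin, and CDH6, or K-cadherin) bind p120 catenin (CTNND1) and β-catenin (CTNNB1) through their cytoplasmic tails, and β-catenin also acts in Wnt signalling. CDH16 and CDH17 belong to a separate branch with additional extracellular repeats and a short tail that lacks the catenin-binding region, and they are best known from kidney and from intestine and fetal liver. EPCAM is an adhesion molecule of epithelial and progenitor cells, TJP1 is a scaffold of the tight junction, and RAB17 is a small GTPase of polarized epithelia that acts in transcytosis through recycling endosomes. Hepatocytes normally carry both CDH1 and CDH2.

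With glycine the RNA of CDH16 stood at 0.31 and that of RAB17 at 0.379 of its mean level with vehicle, and CDH1 stood at 1.61. The glycine and vehicle libraries overlapped in CDH2, CTNNB1, CTNND1, EPCAM and TJP1. RAB17 (ENSG00000124839) lies on the minus strand at chr2:237574322-237601614 in GRCh38. Its proximal promoter, from RefSeq, is shown because of the difference in its RNA. The window runs from 250 bases before to 50 bases after the RefSeq start site, on the minus strand at chr2:237590685-237590984 (GRCh38.p14), which lies inside the gene interval of the counts where that interval extends to the start of a distal non-coding transcript. E-boxes of the type CAGGTG, or CACCTG on the other strand, are in capitals.
RAB17 promoter: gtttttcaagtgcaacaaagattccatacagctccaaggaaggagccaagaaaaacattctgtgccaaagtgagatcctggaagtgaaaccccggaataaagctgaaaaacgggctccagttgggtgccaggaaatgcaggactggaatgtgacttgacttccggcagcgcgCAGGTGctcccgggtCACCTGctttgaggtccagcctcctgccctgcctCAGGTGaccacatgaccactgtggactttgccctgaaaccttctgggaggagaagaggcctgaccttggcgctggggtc

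The window held 3 of these E-boxes, at positions -78, -63 and -29 from the start site. At least 1 was found in 20.6% of 35116 promoter windows of the same length, and 3 or more in 0.635%. Neither GGGCGG, the GC box (in 45.0% of windows), nor TATAAA, the TATA box (11.5%), was found in it on either strand. The CCAAT box (34.6%) was also absent. These letters describe the window, not binding. Of the 10 genes, 4 had a RefSeq promoter entry (RAB17, CTNNB1, TJP1 and CDH2).

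CDH16 (ENSG00000166589, chr16:66908122-66918984 in GRCh38, minus strand) is known as kidney-specific cadherin. Its level was 21.6, 19.4 and 24.0 CPM (counts scaled to a common library size) in the vehicle libraries and 7.24, 6.61 and 6.33 CPM in the glycine libraries. Every glycine library was below every vehicle library, and the glycine libraries lay close together. The means were 21.7 ± 2.31 and 6.73 ± 0.466 CPM (SD, n = 3 each), a ratio of 0.31 and a log2 change of -1.69 ± 0.0978 (SE from the edgeR fit). Dropping any single library gave changes from -1.77 to -1.61. The values rest on 2297 counts with vehicle and 885 with glycine, and no other gene overlaps its 17 exon blocks.

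CDH17 (ENSG00000079112, chr8:94127171-94217303 in GRCh38, minus strand), the liver-intestine cadherin, was also lower with glycine but close to the limit of the depth. It had 15, 10 and 11 counts with vehicle and 3, 9 and 4 with glycine, which is 0.428, 0.287 and 0.306 CPM against 0.094, 0.154 and 0.0948 CPM. A level of 3 counts corresponds to between 0.0513 and 0.094 CPM in these libraries, so glycine replicate 1 sat at that level. The log2 change was -1.48 ± 0.406 (SE), an uncertainty larger than that of any other gene of the set. Only its vehicle libraries reached the minimum of the filter on low counts, so CDH17 was tested because of its level with vehicle. The direction of its change is therefore partly set by the filter, and nothing is read from it. CDH17 passed the threshold of the edgeR fit with all libraries, but not without vehicle replicate 1, vehicle replicate 3 or any of the 3 glycine replicates (log2 changes from -1.81 to -1.29 over all fits that left out a library). It was not tested when 1 CPM was required in 3 libraries, and DESeq2 gave it no adjusted p.

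**Figure D1:**
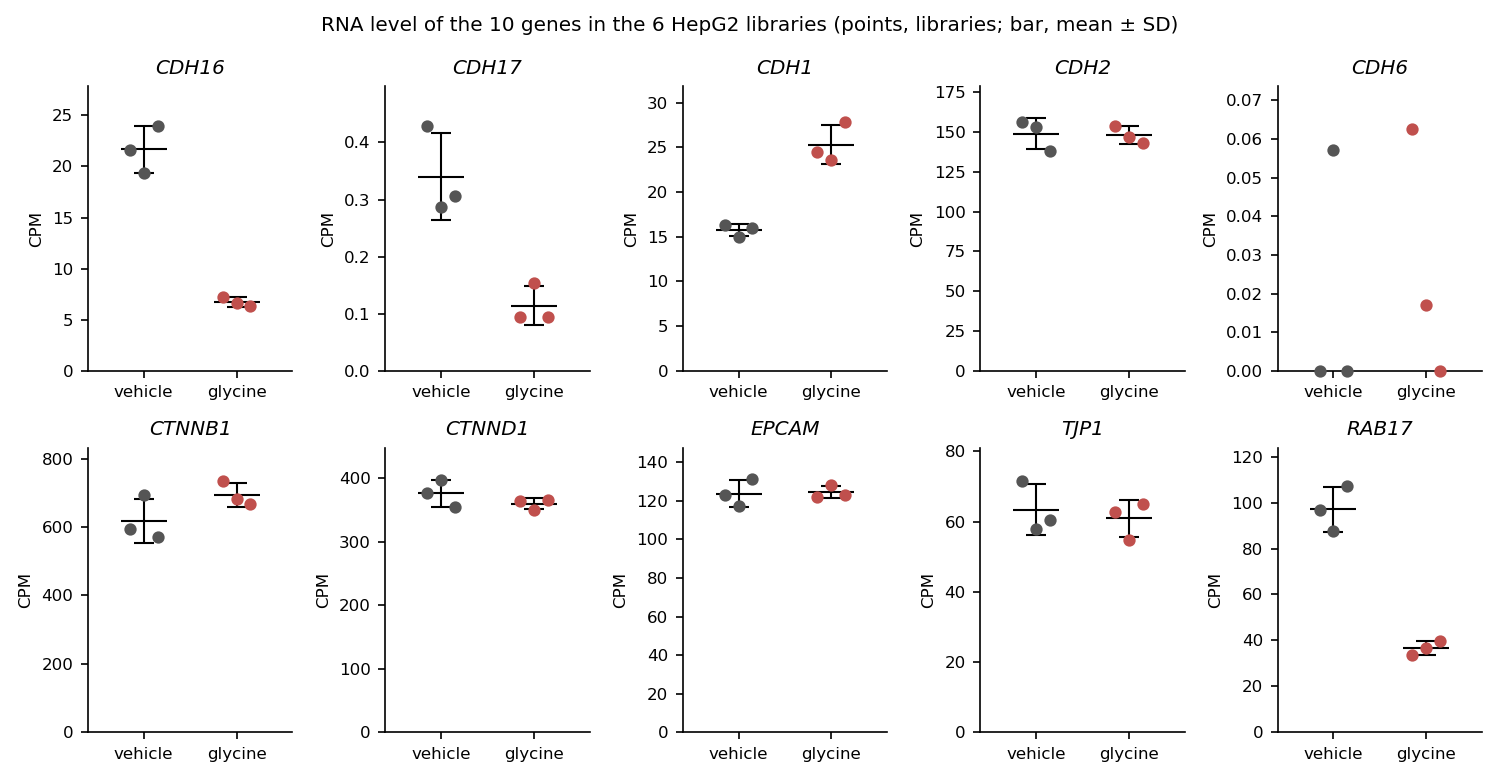
RNA level in CPM (vertical axes, each starting at 0) of the 10 genes in the vehicle and glycine groups; points are single libraries (3 per group) and bars the mean ± SD, left out for CDH6. The glycine libraries of CDH16 (6.33 to 7.24 CPM) and RAB17 (33.6 to 39.8 CPM) lie below all vehicle libraries and those of CDH1 (23.6 to 27.8 CPM) above them.

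Among the classical cadherins, CDH1 (ENSG00000039068, chr16:68737225-68835548 in GRCh38, plus strand) was higher with glycine. Its level was 16.3, 15 and 16.0 CPM with vehicle and 24.5, 23.6 and 27.8 CPM with glycine. The groups did not overlap, and the means of 15.8 ± 0.678 and 25.3 ± 2.18 CPM (SD, n = 3 each) gave a ratio of 1.61 and a log2 change of 0.68 ± 0.0815 (SE). An antisense gene overlaps 5.62% of its exonic length, and reads of the 2 genes cannot be told apart there because the strand setting of the counting is not given.

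CDH2 (ENSG00000170558, chr18:27950966-28177446 in GRCh38, minus strand) was at 156, 153 and 138 CPM with vehicle and 154, 147 and 143 CPM with glycine. The groups overlapped, and the log2 change was -0.01 ± 0.0666 (SE). An antisense gene overlaps 2.75% of its exonic length. CDH6 (ENSG00000113361, chr5:31193750-31329146 in GRCh38, plus strand) had 0, 2 and 0 counts with vehicle and 2, 1 and 0 with glycine. No library exceeded 0.0627 CPM, CDH6 did not pass the filter on low counts, and a difference was not detectable at this depth.

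The make-up of the RNA of the 5 cadherin genes of the set differed between the groups. CDH16 was in the set because of its decrease, so its share restates that decrease. On the TPM scale, on which counts are divided by exonic length and scaled to a common total, the 5 cadherin genes summed to 135 ± 8.6 TPM with vehicle and 126 ± 7 TPM with glycine (SD, n = 3 each). CDH2 held most of this sum, at 77.8% with vehicle and 83.4% with glycine. Other cadherin genes are not part of the sum, among them CLSTN1 at 133 TPM and FAT1 at 85.8 TPM (means over all 6 libraries). CDH16 held 14.7%, 13.7% and 17.7% in the vehicle libraries and 5.33%, 5.1% and 4.93% in the glycine libraries. CDH1 held 6.57%, 6.26% and 6.96%, and then 10.7%, 10.8% and 12.8%. The order of the 2 genes was therefore opposite in the 2 groups: the ratio of CDH1 to CDH16 was between 0.394 and 0.458 in the vehicle libraries and between 2.01 and 2.6 in the glycine libraries. The ratio of CDH1 to CDH2 was 0.085 ± 0.00719 with vehicle and 0.137 ± 0.0162 with glycine (SD, n = 3 each).

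**Figure D2:**
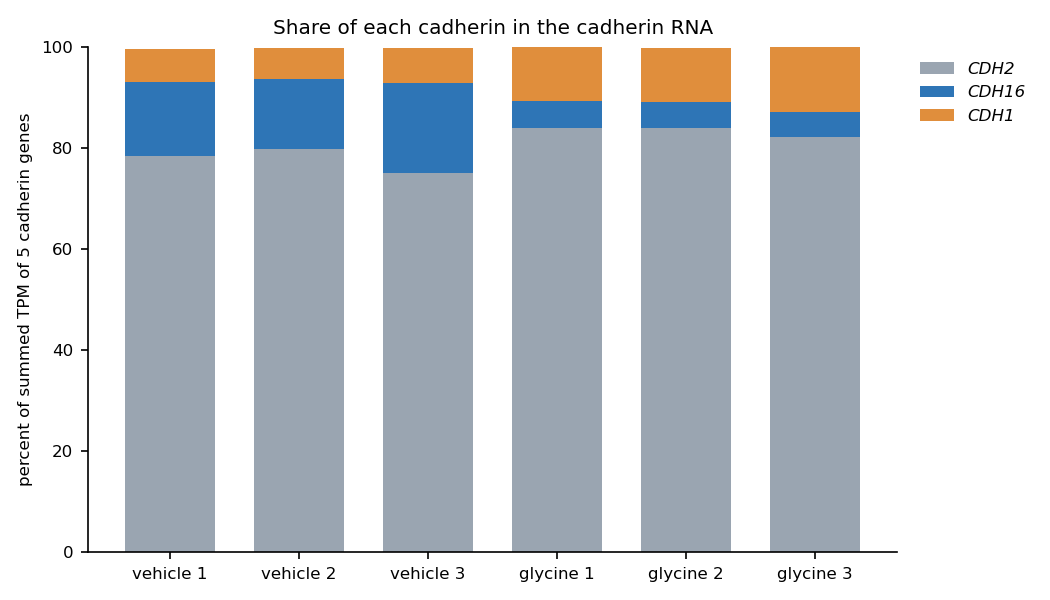
Share of CDH2, CDH16 and CDH1 (percent, vertical axis) in the summed TPM of the 5 cadherin genes of the set, with a stacked bar for each library. Cadherin genes outside the set are left out. CDH16 takes 13.7% to 17.7% of the bar in the vehicle libraries and 4.93% to 5.33% in the glycine libraries, and CDH1 goes from 6.26% to 6.96% to 10.7% to 12.8%. CDH17 and CDH6 are too low to be seen and are not drawn.

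The catenins that bind the classical cadherins differed less. CTNNB1 (ENSG00000168036, chr3:41194837-41260096 in GRCh38, plus strand) was at 593, 692 and 571 CPM with vehicle and 734, 681 and 668 CPM with glycine. Vehicle replicate 2 lay above 2 of the glycine libraries, so the groups overlapped, and the log2 change was 0.17 ± 0.0828 (SE). CTNNB1 was not past the threshold with all libraries but passed it without vehicle replicate 2, at a log2 change of 0.26. CTNND1 (ENSG00000198561, chr11:57753243-57819546 in GRCh38, plus strand) was at 377, 398 and 355 CPM with vehicle and 365, 350 and 366 CPM with glycine. Its log2 change was -0.06 ± 0.0667 (SE), with overlapping groups, and other genes overlap 4.64% of its exonic length.

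EPCAM and TJP1 also had overlapping groups. EPCAM (ENSG00000119888, chr2:47345158-47387601 in GRCh38, plus strand) was at 123, 117 and 131 CPM with vehicle and 122, 128 and 123 CPM with glycine, a log2 change of 0.01 ± 0.0632 (SE). TJP1 (ENSG00000104067, chr15:29699367-29968865 in GRCh38, minus strand) was at 71.6, 58.0 and 60.6 CPM with vehicle and 62.9, 54.9 and 65.0 CPM with glycine, a log2 change of -0.06 ± 0.0878 (SE).

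RAB17, whose promoter is given above, was at 96.9, 87.5 and 107 CPM in the vehicle libraries and at 33.6, 36.9 and 39.8 CPM in the glycine libraries. The lowest vehicle library was above the highest glycine library. The means were 97 ± 9.58 and 36.8 ± 3.1 CPM (SD, n = 3 each), a ratio of 0.379 and a log2 change of -1.40 ± 0.0845 (SE), which ranged from -1.47 to -1.33 when a library was left out. The non-coding gene RAB17-DT (ENSG00000234949), on the opposite strand, was looked at after its values were seen, because it overlaps 1.55% of the exonic length of RAB17. It fell from 1.63, 1.26 and 1.31 CPM to 0.752, 0.769 and 0.758 CPM, a log2 change of -0.88 ± 0.201 (SE, edgeR adjusted p = 0.0118). That call was lost without vehicle replicate 1 (adjusted p up to 0.0546 over the fits that left out a library), and reads of the overlapping pair cannot be told apart. The next tested neighbour, LRRFIP1, had a log2 change of -0.04 (edgeR adjusted p = 0.742).

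A gene was called where the adjusted p of the edgeR quasi-likelihood test, over all 15492 genes tested, was under 0.05. Of the 10 genes, 9 were tested, CDH1 was called higher and CDH16, CDH17 and RAB17 were called lower. Among all tested genes 13.3% were called, 6.71% higher and 6.54% lower. In 4 of the 9 genes the groups did not overlap, against 31.6% of all tested genes. Nothing is read from these counts, since the set was put together with the contrast known. Without vehicle replicate 1, or glycine replicate 1, 2 or 3, the genes called higher numbered 590, 594, 617 and 587 instead of 1040, and without glycine replicate 2 the genes called lower numbered 655 instead of 1013.

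**Figure D3:**
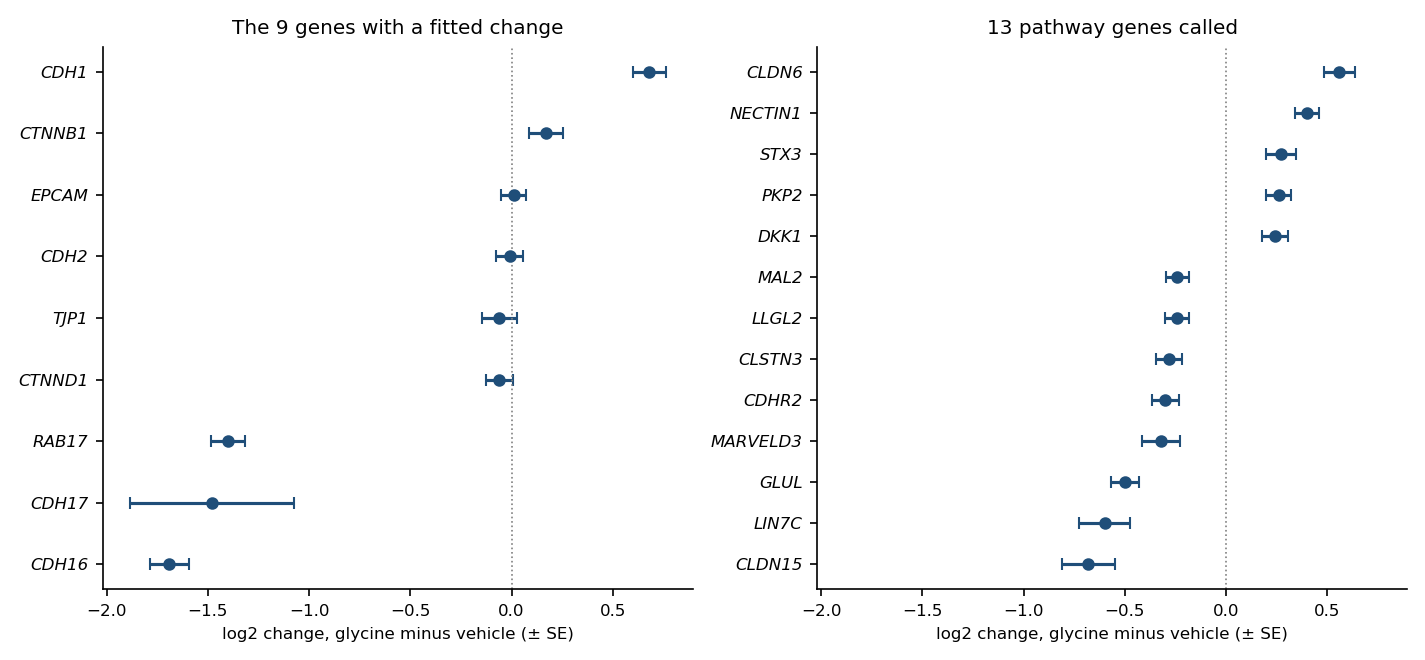
Fitted log2 change of glycine minus vehicle (horizontal axis, points) with its SE (bars), for the 9 tested genes of the set on the left and for 13 of the 14 pathway genes called on the right. CDH16, CDH17 and RAB17 lie at or below -1.40, and the pathway genes lie between -0.68 and 0.56. CDH16 and RAB17 were in the set because of their decreases and CDH17 rests on few counts, so nothing is read from this difference.

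Measured per length, the 10 genes spanned from 348 TPM for CTNNB1 to 0.00642 TPM for CDH6, as means over all 6 libraries. After CTNNB1 came EPCAM with 172 TPM, CTNND1 with 147 TPM and CDH2 with 105 TPM. EPCAM (157 to 180 TPM in the vehicle libraries and 171 to 176 TPM in the glycine libraries) lay above CTNND1 (140 to 155 TPM, then 134 to 150 TPM) in both groups. RAB17 followed in both groups, at 62.1 to 77.3 TPM with vehicle and 25.2 to 30.0 TPM with glycine. TJP1 (17.5 to 22.9 TPM) and CDH16 (18.0 to 22.7 TPM) did not differ beyond their spread with vehicle, whereas with glycine TJP1 was at 16.4 to 20.8 TPM and CDH16 at 6.09 to 7.1 TPM. CDH1 was at 8.24 to 9.51 TPM with vehicle and 12.9 to 16.2 TPM with glycine.

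The wider junction, polarity and trafficking machinery was described with 10 lists of 187 genes outside the set. Of the 133 tested, 6 rose and 8 fell (10.5%, against 13.3% of all tested genes), and their median log2 change was -0.029, against 0.003 over all tested genes. Without glycine replicate 1 or glycine replicate 3 the number called was 7 instead of 14. Of the 14, 6 kept their call under every alternative tried (CLDN6, CLDN15, NECTIN1, LIN7C, GLUL and CDHR2).

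Of 42 other cadherin genes, 16 were tested, 0 rose and 2 fell, with a median log2 change of -0.023. At an unadjusted p under 0.05 these counts were 1 higher and 5 lower (27.3% of all tested genes, 4225 of 15492, were under that value in either direction), and DESeq2 and limma-voom also called 0 higher and 2 lower. CDHR2, a cadherin of the brush border, fell from 94.0, 97.9 and 88.7 CPM to 76.6, 79.4 and 71.6 CPM (log2 change -0.30 ± 0.0659 SE, edgeR adjusted p = 0.0091). CLSTN3, a calsyntenin, fell (log2 change -0.28, edgeR adjusted p = 0.0121), a call that was lost without glycine replicate 2 (0.0592).

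Of the adherens junction partners, 14 of 17 were tested, 1 rose and 0 fell. NECTIN1, an adhesion molecule that recruits afadin, rose from 56.0, 55.2 and 54.7 CPM to 73.3, 73.4 and 71.5 CPM (log2 change 0.40 ± 0.0588 SE, edgeR adjusted p = 0.000659). At an unadjusted p under 0.05, 2 partners were higher and 2 lower, against the 27.3% of all tested genes, and DESeq2 and limma-voom also called 1 higher and 0 lower. Among 9 tested desmosome genes of 14, PKP2, a plakophilin, rose (log2 change 0.26, edgeR adjusted p = 0.0149), but not without glycine replicate 1 (0.0803) or glycine replicate 3 (0.0663).

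Tight junction genes went both ways, with 2 higher and 2 lower of 20 tested and a median log2 change of -0.036. CLDN6, a claudin of embryonic epithelia and the most abundant gene of the list at 174 TPM, rose from 62.3, 77.0 and 69.7 CPM to 102, 107 and 99.2 CPM (log2 change 0.56 ± 0.0766 SE, edgeR adjusted p = 0.000354). CLDN15, a claudin that forms cation pores, fell from 9.02, 7.28 and 9.43 CPM to 4.57, 5.23 and 6.16 CPM (log2 change -0.68 ± 0.13 SE, edgeR adjusted p = 0.00389). The groups did not overlap in either gene. MARVELD3, a tetraspan protein of the tight junction, had a log2 change of -0.32 (edgeR adjusted p = 0.0379) and lost its call without vehicle replicate 1 (0.0779), vehicle replicate 3 (0.0937), glycine replicate 1 (0.141) or glycine replicate 3 (0.0885), and under total count scaling (0.0504). Overlapping genes cover 18.1% of its exonic length.

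Polarity complex genes were mostly not called, with 0 higher and 2 lower of 23 tested and a median log2 change of -0.082. LIN7C, a scaffold that joins the Crumbs complex, fell from 27.0, 27.3 and 26.7 CPM to 22.6, 14.2 and 17.4 CPM (log2 change -0.60 ± 0.125 SE, edgeR adjusted p = 0.00731). Its glycine libraries were spread widely but all lay below the vehicle libraries. LLGL2, a Scribble-complex protein of the basolateral side, fell (log2 change -0.24, edgeR adjusted p = 0.0176), a call lost without vehicle replicate 3 (0.0509), glycine replicate 1 (0.0604), glycine replicate 2 (0.0642) or glycine replicate 3 (0.0502). DESeq2 and limma-voom also called 0 higher and 2 lower, and at an unadjusted p under 0.05 the counts were 1 and 7, against 27.3% of all tested genes.

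The trafficking genes near RAB17 in function included 22 tested of 26, of which 1 rose and 1 fell, with a median log2 change of -0.018. DESeq2 called 1 higher and 2 lower, and limma-voom 1 and 1. At an unadjusted p under 0.05 the counts were 4 and 4, against 27.3% of all tested genes. STX3, a syntaxin of the apical membrane, had a log2 change of 0.27 (edgeR adjusted p = 0.0298). It lost its call without vehicle replicate 2 (0.0892), vehicle replicate 3 (0.069), glycine replicate 1 (0.0526), glycine replicate 2 (0.0951) or glycine replicate 3 (0.112). MAL2, which acts in transcytosis in hepatocytes, had a log2 change of -0.24 (edgeR adjusted p = 0.0151) and lost its call without glycine replicate 1 (0.0526), glycine replicate 2 (0.0559) or glycine replicate 3 (0.052).

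For β-catenin, 7 genes of its turnover and 13 of its known targets were listed. Of the 7 turnover genes, 0 were called by edgeR, DESeq2 or limma-voom and 0 had an unadjusted p under 0.05. The most abundant, CTNNBIP1, an inhibitor of β-catenin binding to TCF factors, had a log2 change of 0.12 (edgeR adjusted p = 0.241). Of 12 tested targets, 1 rose and 1 fell. DESeq2 called 1 higher and 2 lower, and limma-voom 1 and 1. At an unadjusted p under 0.05 the counts were 1 and 2, against 27.3% of all tested genes. GLUL, glutamine synthetase, fell from 549, 583 and 516 CPM to 402, 382 and 385 CPM (log2 change -0.50 ± 0.0691 SE, edgeR adjusted p = 0.000398), with no overlap between groups. DKK1, a secreted Wnt inhibitor, had a log2 change of 0.24 (edgeR adjusted p = 0.0287). Its call was lost without vehicle replicate 1 (0.0701), vehicle replicate 2 (0.0718), glycine replicate 1 (0.0571), glycine replicate 2 (0.0704) or glycine replicate 3 (0.15). The most abundant targets, NOTUM with 572 TPM and SP5 with 517 TPM, had log2 changes of -0.29 (edgeR adjusted p = 0.0999) and -0.05 (0.652).

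Transcription factors and splicing regulators of epithelial and mesenchymal states gave 0 calls by edgeR, DESeq2 or limma-voom among 7 tested of 16, with 1 at an unadjusted p under 0.05. The 3 tested of 6 regulators of cadherin genes likewise gave 0 calls with each tool, with 1 at an unadjusted p under 0.05. ESRP2, an epithelial splicing regulator, was the most abundant of the former at 52.9 TPM (log2 change -0.02, edgeR adjusted p = 0.842). ZEB1, a repressor of CDH1, had a log2 change of -0.05 (edgeR adjusted p = 0.78).

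**Figure D4:**
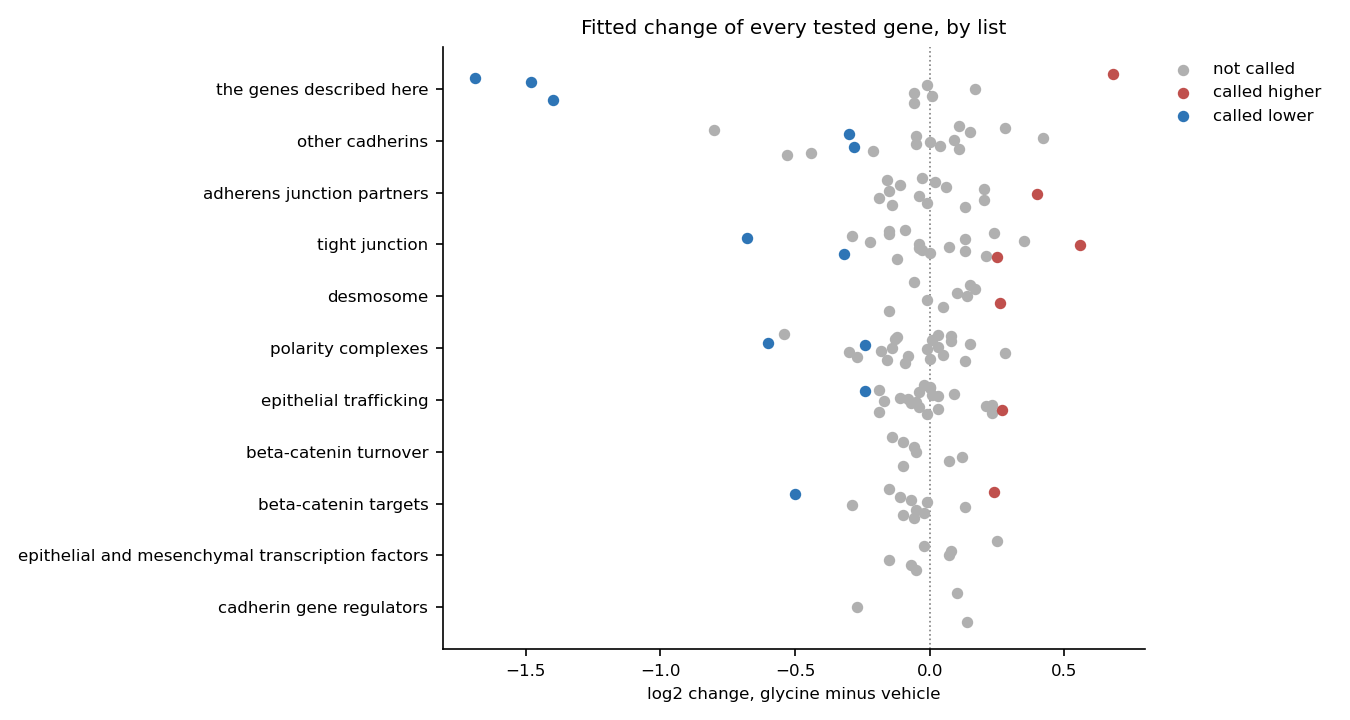
Fitted log2 change of glycine minus vehicle (horizontal axis) of every tested gene, with the set described here in the top row and the 10 pathway lists below; each point is a gene, red where called higher, blue where called lower and grey where not called. The set spans -1.69 to 0.68, and the called pathway genes lie between -0.68 and 0.56. CDH16 and RAB17 were in the set because of their decreases, so nothing is read from this difference in range.

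Markers of the cell type were checked in the same libraries. The 9 hepatic markers summed to between 29600 and 33700 CPM with vehicle and between 25400 and 29100 CPM with glycine, and 2 of them fell (TTR, log2 change -0.32, edgeR adjusted p = 0.00921, and APOA1, -0.26, 0.0483). The APOA1 call was lost when any library other than vehicle replicate 2 was left out (up to 0.168), and under total count scaling, the filter at 1 CPM and the replicate block. Of the 6 fibroblast markers, 4 were under 0.5 CPM in every library, COL1A1 rose (log2 change 1.03, edgeR adjusted p = 0.000585) and PDGFRB fell (-0.66, 0.000137), and their sum was 27.1 to 31.1 CPM with vehicle and 21.5 to 22.1 CPM with glycine. The endothelial markers summed to 4.93 to 5.06 CPM with vehicle and 3.88 to 4.48 CPM with glycine, with VWF called lower (log2 change -1.18, edgeR adjusted p = 0.0239). The immune markers summed to 2.26 to 2.98 CPM and 2.82 to 3.16 CPM, with CD68 called higher (log2 change 0.63, edgeR adjusted p = 0.0226) and 1 of the 4 markers, CD3E, at 0 throughout. The calls of VWF (up to 0.102) and CD68 (up to 0.0845) were each lost in 5 of the 6 fits that left out a library and with DESeq2. In bulk RNA of a single line, fewer cells with a transcript and less of it per cell cannot be told apart. The part of these marker differences in the values of CDH16, CDH1 and RAB17 was not tested.

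The genes whose pattern over the 6 libraries was most like that of CDH16 were sought over 12953 genes averaging 1 CPM or more. The measure was the root mean square difference of log2 of CPM plus 0.5, centred on the vehicle mean. The closest were PLOD2, a lysyl hydroxylase (difference 0.139), AKR1C1, an aldo-keto reductase (0.168), and RAB17 itself (0.202). For RAB17 they were the complement component C7 (0.135), PLOD2 (0.137) and the acyl-CoA synthetase ACSM2A (0.14). C7 was low, with means of 2.85 CPM with vehicle and 0.876 CPM with glycine (log2 change -1.7). ACSM2A was at 4.3 and 1.28 CPM (log2 change -1.73). Adding 0.5 CPM makes differences smaller at such levels. PLOD2 was at 275, 265 and 268 CPM with vehicle and 94.3, 88.4 and 99.9 CPM with glycine. AKR1C1 and ACSM2A have close paralogs whose reads could have been divided in counting, so their levels are uncertain. The likeness covers 6 libraries that share the same 2 groups. It mainly restates the size of the difference between the groups after 0.5 CPM was added.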

How the data were processed

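The authors deposited raw counts of reads per gene, as whole numbers and not normalized, with 1 table per library. Their processing notes name Trimmomatic 0.36, STAR 2.5.2b and featureCounts of Subread 1.5.2 on GRCh38. The strand setting and the annotation release are not given in the sources used here. Of 57500 genes, 56898 were in GENCODE release 29 with identical start and end for 54784. Symbols were found for 56410. Libraries held between 31795489 and 58815986 counts and were grouped by their treatment labels, with 3 per group. The replicates of a group differed by a chi-square of 7.59 to 29.3 per degree of freedom, so no library repeated another.

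CPM used library sizes multiplied by TMM factors, and TPM used the exonic length in the files. Genes were kept by the edgeR filter (minimum count 10, minimum total 15) and glycine was tested against vehicle in edgeR 4.0.16 (R 4.3.3; quasi-likelihood, two-sided), with the group alone in the model and Benjamini-Hochberg adjustment over 15492 genes. The scripts were tested on simulated data. Limits from 3 counts cover counting error only. Same-numbered libraries did not deviate together (correlations -0.0577, -0.0268 and -0.00258), so the numbers were not used as pairs. Across numbers, glycine replicate 3 had a correlation of 0.214 to vehicle replicate 1. Values were also positive for glycine replicate 1 (0.214, to vehicle replicate 2) and glycine replicate 2 (0.18, to vehicle replicate 3). Every remaining combination was negative, down to -0.198. The paper defines an independent experiment as one done on a different day. For its cell-based assays it reports controls alongside treated samples in every run. The positive combinations joined each glycine library to a different vehicle library. A model with libraries matched across numbers was not tested, and the main fit takes no account of a day that a vehicle and a glycine library may share. Exact permutation of 3 against 3 libraries cannot go below p = 0.1 and was not used. The alternatives were DESeq2 size factors, total count scaling, 2 other filters, DESeq2 1.42.0, limma 3.58.1 with voom, a fit with the replicate number as a block, and dropping each library in turn.

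The set and the lists were chosen with earlier results of these data known. In each list, up to 4 called genes with the smallest p were named, the most abundant gene where none was called, and the 2 most abundant for their level. Likeness to CDH16 and RAB17 used log2 of CPM plus 0.5 and named the nearest 3 genes. Results of genes that met this rule, 2 in all, are not reported here.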

Additional observations from a re-analysis of the deposited data

How the results depend on the processing

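Leaving out a library moved the number of genes called most: it ran from 587 to 926 higher, from 655 to 1010 lower, and from 7 to 18 of the pathway genes, against 1040, 1013 and 14 with all libraries. These fits have fewer samples. Under the other 7 alternatives the 3 counts stayed within 1.5 times. No called gene of the set or of the pathway lists changed sign. Among genes of the set that were not called, 3 changed sign in some fits. Over the fits without a library, the log2 change of TJP1 ran from -0.12 to 0.03, EPCAM from -0.03 to 0.06 and CDH2 from -0.06 to 0.01, and CDH2 was also at 0.01 under total count scaling. CDH17 had an adjusted p in 11 of the 13 alternatives, of which it lost its call in 6 and kept it in 5. DESeq2 and the filter at 1 CPM gave it no adjusted p. CTNNB1 gained a call in 1 alternative. A replicate block in the model gave 866 calls higher and 918 lower over all genes and 13 among the pathway genes, and CDH17 (log2 change -1.47) and DKK1 (log2 change 0.23, adjusted p = 0.0502) were not called. The numbers are not known to mark libraries handled together, so this fit cannot show how a shared run would change the calls. For CDH17 and CDH6, depth was the limit.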

Other observations

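The genes nearest to CDH1 in pattern were looked at after the values of CDH16 and RAB17 had been seen, and are given as values with no test. By the same measure of likeness over 6 libraries they were CCN2 (difference 0.038) and CCN1 (0.06), which encode matricellular proteins, and IGFBP1 (0.072), a binding protein of insulin-like growth factors made by hepatocytes. CCN2 was at 152, 136 and 154 CPM with vehicle and 225, 216 and 267 CPM with glycine. CCN1 was at 18.7, 16.5 and 19.0 CPM and then at 26.2, 27.3 and 33.5 CPM. As with CDH1, glycine replicate 3 was the highest library in all 3 genes.

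Genes within 250 kb of CDH16 were also looked at outside the naming rule. Of 13 tested neighbours, 1 rose (FBXL8, log2 change 0.37, edgeR adjusted p = 0.0358) and 1 fell (B3GNT9, log2 change -0.38, edgeR adjusted p = 0.00623). Among all tested genes 13.3% were called, so nothing is read from these counts. The FBXL8 call was lost without vehicle replicate 2 or 3 or any of the glycine replicates (up to 0.116), and with DESeq2. CES2, a carboxylesterase gene, had a log2 change of -0.20 (edgeR adjusted p = 0.0554).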
